A study of Mus musculus with 48 samples.

Results

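The nuclear-encoded genes of the mitochondrial respiratory chain and ATP synthase were followed in the dentate gyrus of mice during the first 2 weeks after kainate. The members are the protein-coding genes of the count table whose mouse symbol begins with Ndufa, Ndufb, Ndufc, Ndufs, Ndufv, Uqcr, Atp5, Cox4, Cox5, Cox6, Cox7 or Cox8 and that reach 10 counts in at least 4 libraries. Of 55357 genes in the table, 94 carry such a symbol and 91 pass the count rule. Cox8b, Cox8c and Ndufb11b did not reach it, and all 91 members were among the 21390 genes tested. The 48 libraries came from 24 wild-type C57BL/6J mice, which received kainate, a glutamate receptor agonist that induces status epilepticus, or saline into 1 hippocampus. Each mouse gave a library of the injected side, the epileptogenic zone (EZ), and a library of the opposite side, the peri-ictal zone (PIZ), at 3, 7 or 14 days. The 12 groups therefore hold 4 mice each, 2 male and 2 female, aged 6 to 8 weeks by the sample records and 8 to 10 weeks by the methods. The saline mice differ between the days. The groups share the wild-type genotype, the surgery and the dissection, and the PIZ of a kainate mouse is the far side of an injected animal and not an untreated brain. The samples are the dorsal part of the dissected dentate gyrus with its hilus, not pooled between mice. A level is therefore an average over all cell types there.

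The respiratory chain passes electrons from NADH and succinate to oxygen through complexes I to IV and pumps protons across the inner mitochondrial membrane, and complex V uses the proton gradient to make ATP. The complexes other than II combine many nuclear-encoded subunits with a few core subunits that the mitochondrial genome encodes. Neurons depend on this pathway for most of their ATP, and several subunits of complex IV exist as paralogs that differ between cell types.

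The symbol rule finds all kinds of member, and the 91 genes were divided by role. Complex I gave 7 core subunits, which carry the redox centres, 30 accessory subunits and 8 assembly factors of the Ndufaf family. Complex III gave 8 subunits. Complex IV gave 11 ubiquitous subunits and 8 genes that are tissue isoforms, paralogs or related factors. Complex V gave 5 subunits of the F1 head, where ATP is made, and 14 further genes of the membrane part, the stalk and the inhibitor Atp5if1. None lies on the mitochondrial chromosome, and they are spread over 19 chromosomes. The rule leaves out complex II and the cytochrome c1 gene, which are described with the pathway lists.

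The members were abundant, short messages. Their median transcript length was 990 bases against 2740 for all genes tested, and their median level was 61.4 CPM (counts scaled to a common library size, with TMM factors) against 10.7. Together they took between 0.726% and 0.991% of the counts of a library. Per kilobase of transcript, the most abundant member was Atp5f1b, the catalytic beta subunit of the F1 head, at a mean of 449 CPM per kb over the 48 libraries. Cox8a (362), Cox4i1 (347), Ndufa4 (310.2) and Cox6c (308) of complex IV came next on the same scale. By role, the median level per kb was 180 for the ubiquitous complex IV subunits, 143 for the F1 head, 78.2 for complex III, 72.8 for the rest of complex V, 53.9 for the accessory and 53.4 for the core subunits of complex I. Assembly factors stood at 7.49 and the complex IV isoforms and factors at 2.52. Leading their roles were Ndufb8 among the accessory subunits and Ndufaf3 among the assembly factors of complex I, Uqcr10 in complex III, Cox7a2l among the complex IV isoforms and factors and Atp5mc3 in the rest of complex V.

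**Figure D1:**
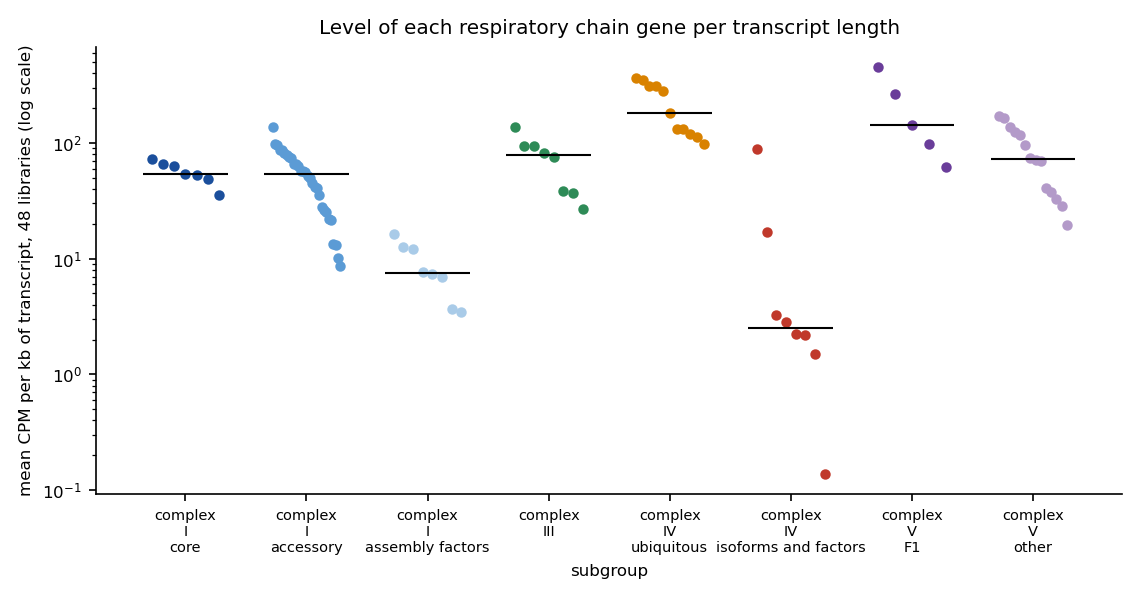
Mean level of each of the 91 members over the 48 libraries, in CPM per kb of transcript on a log axis, grouped by role, with the median of each role as a line. The ubiquitous complex IV subunits and the F1 head stand highest, and of the complex IV isoforms and factors all but Cox7a2l and Cox5b-ps lie below every other member.

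Some members need care. The paralogs Cox4i2, Cox6a2, Cox6b2, Cox7a1, Cox7b2 and Ndufa4l2 and the assembly factor Ndufaf6 had a median of fewer than 100 counts in a library, against more than 500 counts for 78 members. The table also holds 18 pseudogenes with symbols of the rule, whose counts came to 0.992% of the members' counts, and 13 members overlap another gene on the same strand. Cox5b-ps, annotated as protein-coding, is a close copy of Cox5b and its level is uncertain. A second Atp5po entry shares its exons with neighbouring genes and is counted as a member but not read on its own.

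A comparison of kainate with saline was made on each side at each day with edgeR, and a gene was called at a Benjamini-Hochberg adjusted p under 0.01 over all 21390 genes. In the EZ at day 3, 6 of the 91 members were called higher and 2 lower, while 20.5% of all genes tested were called higher and 14.7% lower. At day 7, 9 members were called higher and 6 lower, against 25.9% and 19.7% of all genes. Among the 11256 genes at least as abundant as the 10th percentile of the members, 41.9% were called at day 3 and 54.1% at day 7. With a fold change over 1.5 as well, 3 members were differentially expressed genes (DEG) at day 3 and 4 at day 7, against 24.7% and 32.5% of all genes.

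The median log2 fold change of the members in the EZ was -0.02 at day 3 and -0.01 at day 7, and that of all genes was 0.03 and 0.01. Both moved with the scaling: with offsets for GC content and transcript length the members stood at -0.19 at each day and all genes at -0.05 and -0.10, and with library size alone the members stood at 0.11 and all genes at 0.16 at day 3. The median size of the change, sign aside, was 0.12 for the members and 0.39 for all genes at day 3, and 0.13 and 0.48 at day 7. For 81 members at day 3 and 76 at day 7, the log2 fold change with 2 standard errors on each side stayed inside a 1.5-fold change. Kainate and saline libraries did not overlap in CPM for 19 members at day 3 and 15 at day 7, against 42.4% and 43.8% of all genes.

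These counts moved with the scaling, the tool, the libraries in the model and single mice. With offsets for GC content and transcript length, 24 members were called at day 3 (3 higher, 21 lower) and 30 at day 7 (3 higher, 27 lower), and with library size as the only scaling 13 (13 higher, 0 lower) and 20 (16 higher, 4 lower). With upper quartile factors the split at day 7 was 9 higher and 10 lower, and with RLE size factors that at day 3 was 5 higher and 3 lower. limma-voom with quality weights called 27 at day 3, and with only the compared groups in the model edgeR called 8 at day 7. The day 3 count was 3 without mouse 38 and 5 without mouse 18, 30, 41 or 42, and the day 7 count was 23 without mouse 23.

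**Figure D2:**
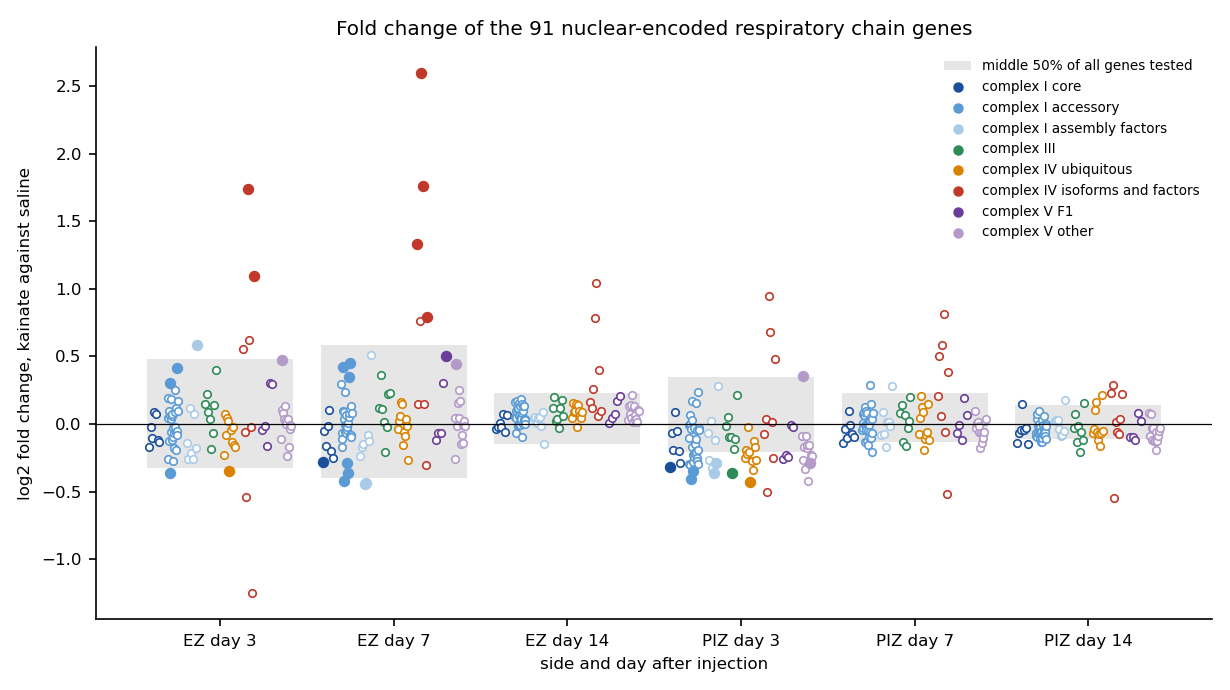
Log2 fold change of the 91 members, kainate against saline, on the y axis for each side and day, coloured by role, with filled points for members called at an adjusted p under 0.01 and open points for the others. The grey boxes span the middle 50% of all genes tested. Most members lie near 0 in the EZ, complex IV isoforms reach highest at day 7, and most points of the PIZ at day 3 lie below 0.

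The clearest change among abundant members was in Atp5mc2, 1 of 3 genes that encode the identical mature c subunit of the membrane ring of ATP synthase (ENSMUSG00000062683.12, GRCm39 chr15:102571295-102580787). Its CPM in the EZ at day 3 was 45.3, 46.4, 47.1 and 50.9 after saline and 67.9, 67.2, 65.2 and 63.1 after kainate. At day 7 the saline mice stood at 46.0, 48.5, 44.5 and 50.1 and the kainate mice at 71.1, 63.8, 58.1 and 64.7. In the PIZ at day 3 the values were 46.3, 41.3, 43.7 and 44.2 after saline against 55.2, 53.7, 56.4 and 58.6. In all 3 comparisons every kainate library lay above every saline library. The log2 fold changes were 0.47 (SE 0.073, adjusted p 2.87e-06), 0.45 (adjusted p 3.00e-06) and 0.35 (adjusted p 0.000532). At day 14 the 4 kainate libraries of the EZ (45.9 to 57.2) overlapped the saline libraries (45.6 to 51.2). The call at day 7 in the EZ and that at day 3 in the PIZ were lost with the GC and length offsets, with log2 fold changes of 0.16 (adjusted p 0.0114) and 0.13 (adjusted p 0.0780).

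Its partners Atp5mc1 and Atp5mc3, which encode the same mature protein, did not pass the test in these comparisons. In the EZ their log2 fold changes were 0.10 and 0.08 at day 3 and 0.05 and -0.02 at day 7, and in the PIZ at day 3 they were -0.27 and -0.17. Atp5mc2 therefore made up 15.5% ± 1.10 (SD, n = 4) of the CPM of the 3 genes after saline in the EZ at day 3 and 19.5% ± 1.76 after kainate. At day 7 the shares were 14.7% ± 0.673 and 19.2% ± 3.09.

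Of the complex V genes, Atp5f1e, the epsilon subunit of the F1 head (ENSMUSG00000016252.8, chr2:174302861-174305906), was also higher in the EZ at day 7. It stood at 54.6, 58.2, 56.96 and 59.1 CPM after saline and at 89.9, 85.5, 66.9 and 81.5 after kainate, without overlap. The log2 fold change was 0.50 (SE 0.11, adjusted p 0.000219), and 1 alternative, the GC and length offsets, took it to 0.21 (adjusted p 0.0236). The other 4 F1 subunits did not pass the test on either side, and Atp5f1b was at -0.02 in the EZ at day 3 and -0.07 at day 7. Atp5if1, the inhibitor of ATP hydrolysis by the complex, was at -0.26 at day 7 (adjusted p 0.0159).

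**Figure D3:**
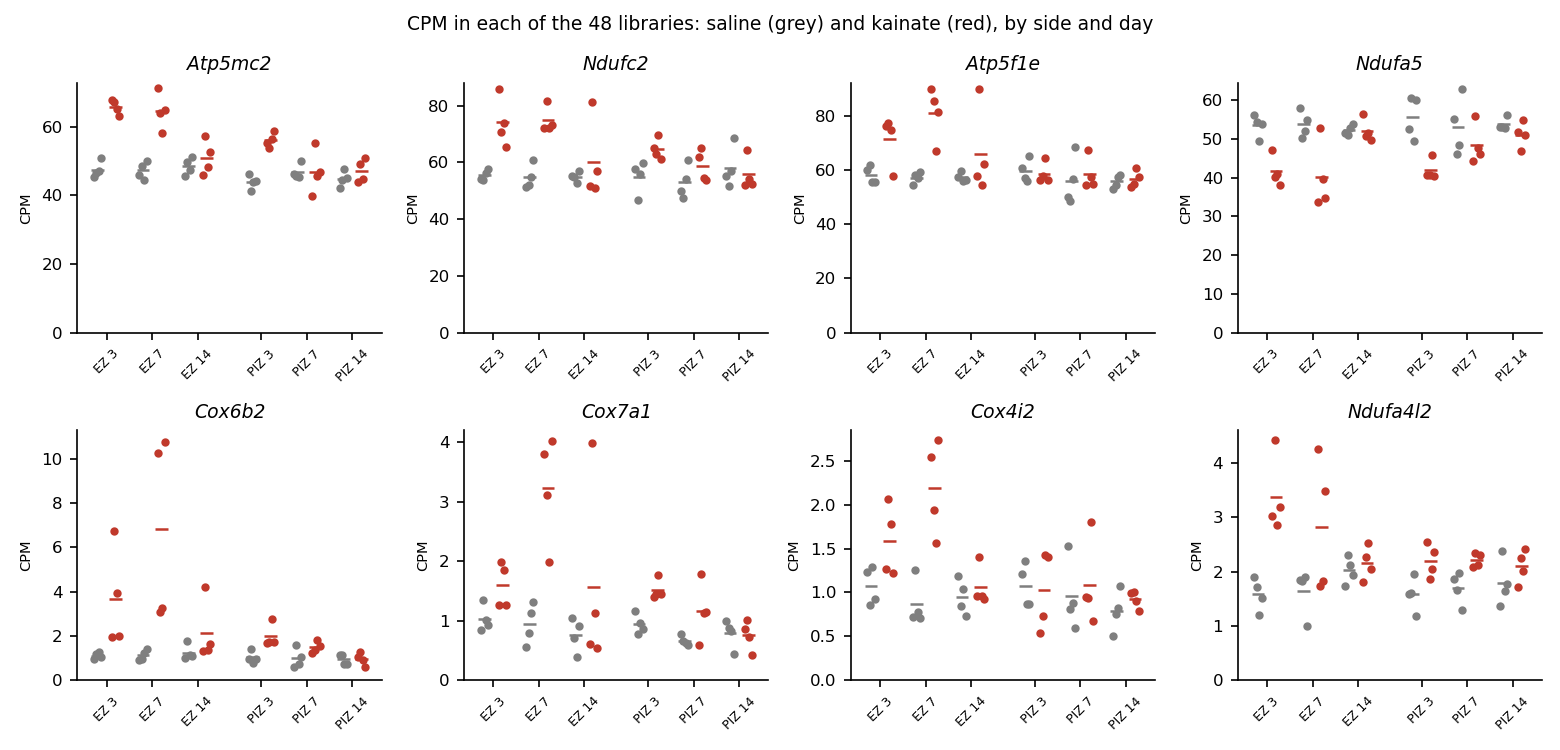
CPM of 8 members in each of the 48 libraries by side, day and injection, with the group mean as a line. Atp5mc2 and Ndufc2 separate kainate from saline in the EZ at days 3 and 7, Ndufa5 is lower there, and the 4 complex IV paralogs are low in every saline library.

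Complex I moved in both directions. Ndufc2, an accessory subunit of the membrane arm (ENSMUSG00000030647.9, chr7:97049210-97057022), stood at 54.2, 53.8, 56.4 and 57.6 CPM after saline in the EZ at day 3 and at 86.0, 70.7, 73.9 and 65.5 after kainate. At day 7 its saline values were 51.5, 52.1, 54.7 and 60.9 and its kainate values 72.2, 81.7, 72.1 and 73.3. The groups did not overlap at either day, with log2 fold changes of 0.42 (SE 0.11, adjusted p 0.00161) and 0.45 (adjusted p 0.000542). The day 3 call was lost without mouse 30 (adjusted p 0.0156), and both calls with the GC and length offsets, at 0.27 for each day (adjusted p 0.0220 and 0.0160). Among accessory subunits, Ndufa2 was called higher at both days (0.30 and 0.42) and Ndufb7 at day 7 (0.35). With the GC and length offsets neither gene was called higher. The names Ndufa2 and Ndufb7 were chosen after their values were seen.

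Ndufa5, an accessory subunit of the peripheral arm (ENSMUSG00000023089.13, chr6:24518659-24528012), fell in the EZ at both days and in the PIZ at day 3. It went from 56.1, 54.5, 49.6 and 53.8 CPM after saline to 47.2, 40.3, 40.95 and 38.1 after kainate in the EZ at day 3. At day 7 the saline values were 57.9, 50.1, 52.1 and 54.9, and the kainate values were 33.7 in mouse 21, 52.9 in mouse 23, 39.6 in mouse 26 and 34.7 in mouse 35. Mouse 23 thus lay within the saline range at day 7, and the other kainate mice lay below it. The log2 fold changes were -0.36 (adjusted p 0.00270) and -0.42 (adjusted p 0.000447). The day 3 call was lost without mouse 18, 38 or 44, with an adjusted p of 0.0114, 0.0127 and 0.0131, and with library size as the only scaling (0.0200). The day 7 call was lost with only the compared groups in the model (adjusted p 0.0432).

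Other members of complex I fell in the EZ at day 7 only by the threshold, and no difference between the days was called for them. These were the accessory subunits Ndufb4 (-0.36, adjusted p 0.000770) and Ndufb2 (-0.29, adjusted p 0.00741), the core iron-sulfur subunit Ndufs1 (-0.28, adjusted p 0.00619) and the assembly factors Ndufaf5 (-0.43, adjusted p 0.000304) and Ndufaf4 (-0.45, adjusted p 0.00134). All 5 lost the call with only the compared groups in the model (adjusted p from 0.0289 to 0.0966). Ndufs1 lost it without mouse 20, 21, 26, 35 or 89, Ndufb2 without mouse 21, 34, 35 or 89, Ndufb4 without mouse 21 or 35, and Ndufaf4 without mouse 21. Library size as the only scaling also ended the calls of Ndufs1 (adjusted p 0.0173) and Ndufb2 (0.0296), and no filter on low counts that of Ndufb2 (0.0124). Ndufb2 shares a strand with another gene whose counts came to 9.49% of its own. The assembly factor Ndufaf8 was a DEG in the EZ at day 3 at 0.59 (SE 0.18, adjusted p 0.00676), from 4.99, 3.69, 3.51 and 4.38 CPM to 6.77, 5.70, 6.57 and 5.85. Its groups did not overlap, but the call was lost without mouse 29, 30, 37, 38, 41 or 42, each time with an adjusted p between 0.0107 and 0.0340. It was also lost with the GC and length offsets (0.32, adjusted p 0.0842), with no filter on low counts (adjusted p 0.0185) and with only the compared groups in the model (adjusted p 0.0139). None of the 8 complex III subunits was called in the EZ by edgeR, where 1 at day 3 and 3 at day 7 had an unadjusted p under 0.05.

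The 8 complex IV isoforms and factors held most of the DEG. At day 7 in the EZ, 4 of them were called higher and 0 lower, with a median log2 fold change of 0.78, whereas 0 of the 11 ubiquitous complex IV subunits were called by edgeR (1 at an unadjusted p under 0.05), with a median of -0.01. At day 3 the counts were 2 higher of 8 and, among the ubiquitous subunits, 1 lower of 11. Of all genes tested, 20.5% were called higher and 14.7% lower at day 3, and 25.9% and 19.7% at day 7. The day 3 count of the isoforms and factors was near that share.

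Cox6b2, the paralog of the intermembrane space subunit Cox6b1 and best known from testis (ENSMUSG00000051811.15, chr7:4754789-4756093), showed the largest fold change of any member in the EZ at days 3 and 7 and in the PIZ at day 3. It stood at 0.919, 0.955, 1.24 and 1.41 CPM after saline in the EZ at day 7. After kainate it stood at 10.3 in mouse 21, 3.06 in mouse 23, 3.27 in mouse 26 and 10.8 in mouse 35. The groups did not overlap, and mice 21 and 35 were more than 3 times the other kainate mice. The log2 fold change was 2.60 (SE 0.40, adjusted p 1.09e-06). At day 3 its values were 0.927, 1.17, 1.25 and 1.02 after saline and 1.95, 6.73, 3.95 and 1.98 after kainate, with a rise of 1.74 on the log2 scale (adjusted p 0.000412) that fell to 1.27 (adjusted p 0.0106) without mouse 38. Its PIZ value at day 3 was 0.94 (adjusted p 0.0860), with all 4 kainate libraries (1.68 to 2.77) above all 4 saline libraries (0.780 to 1.41).

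Cox7a1, the heart and muscle isoform of the subunit that Cox7a2 supplies in most tissues (ENSMUSG00000074218.4, chr7:29883569-29885503), was a DEG in the EZ at day 7. It stood at 0.561, 0.782, 1.14 and 1.32 CPM after saline and at 3.802, 3.11, 1.99 and 4.02 after kainate, without overlap. The log2 fold change was 1.76 (SE 0.39, adjusted p 0.000195). At day 3 it was at 0.62 (adjusted p 0.186) and at day 14 at 1.04 (adjusted p 0.142), where mouse 27 alone stood at 3.99 CPM and the other kainate mice between 0.543 and 1.12.

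Cox4i2, the hypoxia-responsive isoform of the regulatory subunit Cox4i1, and Ndufa4l2, the paralog of Ndufa4, are both known in the brain from pericytes and smooth muscle of vessels. Cox4i2 was at 0.714, 1.26, 0.774 and 0.706 CPM after saline in the EZ at day 7 and at 2.55, 1.94, 1.56 and 2.74 after kainate, a log2 fold change of 1.33 with an SE of 0.30 and an adjusted p of 0.000226. Ndufa4l2 was at 1.90, 1.71, 1.199 and 1.51 CPM after saline at day 3 and at 3.02, 4.44, 2.87 and 3.20 after kainate, a log2 fold change of 1.09 with an SE of 0.22 and an adjusted p of 0.000126. Kainate and saline libraries were separate for both genes, which lie at chr2:152595625-152606959 (Cox4i2, ENSMUSG00000009876.14) and chr10:127350818-127353038 (Ndufa4l2, ENSMUSG00000040280.11). At day 7 Ndufa4l2 was high in mouse 21 (4.27) and mouse 35 (3.48) and within the saline range in mouse 23 (1.73) and mouse 26 (1.83). Its call at day 7 (0.79, adjusted p 0.00287) was lost without mouse 21, 35 or 89, with an adjusted p of 0.0518, 0.0187 and 0.0226, with the GC and length offsets (0.0350) and with only the compared groups in the model (0.0942).

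The genes that these paralogs resemble moved less. Cox4i1 was at -0.23 in the EZ at day 3 (adjusted p 0.0104) and -0.04 at day 7, Ndufa4 at -0.17 and -0.27, Cox7a2 at -0.05 and -0.06, and Cox6b1 at 0.02 and 0.15, and none of them passed the test. Cox7a2l, a supercomplex assembly factor, was at -0.02 and 0.15, Cox6a1 at 0.05 and 0.16, its muscle paralog Cox6a2 at -0.54 and 0.76 (adjusted p 0.201 and 0.0447), and Cox7b2 at -1.25 and -0.30 from at most 18 counts in a library. The paralogs stayed a small share of their pairs, computed from CPM per kb. Cox7a1 made up 1.54% ± 0.470 (SD, n = 4) of its level plus that of Cox7a2 after saline in the EZ at day 7 and 5.40% ± 1.80 after kainate. For Cox6b2 with Cox6b1 the shares were 1.05% ± 0.234 and 5.42% ± 3.25, for Cox4i2 with Cox4i1 0.322% ± 0.110 and 0.835% ± 0.237, and for Ndufa4l2 with Ndufa4 0.512% ± 0.153 and 1.13% ± 0.644, where the libraries overlap. At day 3 in the EZ, Ndufa4l2 had 0.519% ± 0.0841 and 1.27% ± 0.362, which do not overlap. On the PIZ side at day 3 the shares were higher after kainate in all 4 libraries for Cox7a1 (1.25% to 1.78% after saline and 2.55% to 3.27% after kainate), Cox6b2 (0.723% to 1.26% and 1.63% to 2.51%) and Ndufa4l2 (0.337% to 0.621% and 0.689% to 0.939%), and those of Cox4i2 overlapped. In the PIZ at day 3, 30.7% of all genes did not overlap in CPM, and edgeR called none of these paralogs. Lengths are those of 1 annotated transcript for each gene, and reads shared between paralogs could not be followed.

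Stretches before transcript starts are shown for paralogs of this group because Ndufa4 and Cox7a2 hold more CG dinucleotides there than Ndufa4l2 and Cox7a1, and many CG mark broadly active promoters. Each is 150 bases on the gene's strand in GRCm39 and ends at the base before the start of the gene's canonical transcript, with CG in capitals. For Cox4i2 that start lies inside the gene's annotated span, since other transcripts start further upstream. Ndufa4 lies on the minus strand at chr6:11907497-11907646, Ndufa4l2 on the plus strand at chr10:127350668-127350817, Cox7a2 on the minus strand at chr9:79667163-79667312, Cox7a1 on the plus strand at chr7:29883419-29883568 and Cox4i2 on the plus strand at chr2:152595913-152596062.
Ndufa4: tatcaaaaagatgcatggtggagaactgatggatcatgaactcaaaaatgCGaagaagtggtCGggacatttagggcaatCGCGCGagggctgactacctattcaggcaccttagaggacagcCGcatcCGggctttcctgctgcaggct
Ndufa4l2: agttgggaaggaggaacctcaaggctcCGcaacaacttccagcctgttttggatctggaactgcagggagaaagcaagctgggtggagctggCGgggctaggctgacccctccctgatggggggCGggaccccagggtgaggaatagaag
Cox7a2: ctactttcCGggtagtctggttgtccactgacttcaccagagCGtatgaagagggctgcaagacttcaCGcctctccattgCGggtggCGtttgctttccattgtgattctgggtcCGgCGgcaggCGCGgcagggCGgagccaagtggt
Cox7a1: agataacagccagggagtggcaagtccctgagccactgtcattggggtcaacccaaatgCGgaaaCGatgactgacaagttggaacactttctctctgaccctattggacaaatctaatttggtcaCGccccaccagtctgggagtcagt
Cox4i2: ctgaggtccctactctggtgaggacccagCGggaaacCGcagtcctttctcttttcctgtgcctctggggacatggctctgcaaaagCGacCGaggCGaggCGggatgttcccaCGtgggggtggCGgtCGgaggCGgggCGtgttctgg

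In the printed stretches Ndufa4 holds 7 CG, Ndufa4l2 3, Cox7a2 10, Cox7a1 3 and Cox4i2 11. Over the 250 bases before the canonical start the counts were 13 and 3 for Ndufa4 and Ndufa4l2, and 12 and 3 for Cox7a2 and Cox7a1. The other pairs had 22 and 1 (Cox6a1 and Cox6a2), 38 and 12 (Cox4i1 and Cox4i2) and 8 and 11 (Cox6b1 and Cox6b2), so the paralog did not hold fewer CG in every pair. The windows of Cox4i1 and Cox6b2 overlap annotated exons, and those of the Cox6a pair were not checked for exons. Windows were not screened for exons over all genes, so the counts that follow are those of 250 bases before a canonical start. The members had a median of 11 CG in 250 bases and 63.7% held 10 or more, against a median of 8 and 43.4% over 21770 protein-coding genes. The complex IV isoforms and factors had a median of 4 and the ubiquitous complex IV subunits 13.

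Motifs of factors known to act on these genes were searched on both strands of the same 250 bases. GCATGCG, a core of the site of NRF1, was in 7 members (7.69%) and in 3.54% of all promoters. CCGGAAG of GABP and other ETS factors was in 6.59% and 6.89%, AAGATGG of YY1 in 4.40% and 4.11%, and ACGTG of the HIF factors in 16.5% and 17%. The NRF1 letters were in Atp5mc2, Atp5mg, Cox6a1, Ndufa13, Ndufa4, Ndufa6 and Ndufaf4, and Cox4i2 and Atp5mc2 were among the 15 members with ACGTG.

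The cell types of the tissue shifted in the same libraries. At day 3 in the EZ, 4 of 8 neuron markers fell (Snap25, Syt1, Syp and Stmn2) and Nefm rose (1.01), with summed levels of 5345 to 6549 CPM after saline and 2414 to 4309 after kainate. At day 7, 6 of 8 fell, and their summed level was 5421 to 6858 CPM after saline and 1692 to 4166 after kainate. The lowest sums, 1692 and 1849, were those of mice 21 and 35, where Ndufa5 was lowest and Cox6b2 highest. All 8 microglia markers rose at day 7 (median log2 fold change 2.91), and 7 of 8 at day 3. Of 7 pericyte and smooth muscle markers, 5 rose at day 3 and 6 at day 7, with summed levels of 220 to 230 CPM after saline against 277 to 546 at day 3, and of 179 to 218 against 252 to 426 at day 7. No marker of these lists was at 0 in all libraries of a group. In bulk tissue, fewer cells of a type and less RNA per cell cannot be told apart, and the part of these shifts in the changes of the members was not tested.

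The other marker lists were as follows in the EZ. Astrocyte markers rose for 4 and fell for 2 of 8 at day 3 and rose for 6 at day 7, and oligodendrocyte markers rose for 0 and 3 of 7. Endothelium markers rose for 3 and 4 of 6. Granule cell markers fell for 2 and 3 of 7, pyramidal markers of CA3 and CA1 for 4 and 6 of 6, and interneuron markers for 3 and 2 of 6. Of 4 choroid plexus markers tested (Kcnj13 was not), 1 rose and 1 fell at day 3 and 1 fell at day 7. The granule cell list, which marks the main neurons of the dentate gyrus, had summed levels of 810.4 to 1274 CPM in the saline EZ at day 7, so the labelled tissue expressed its markers.

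In the PIZ at day 3, 1 member was called higher and 8 lower, where 8.12% of all genes were called higher and 4.18% lower. Among genes as abundant as the members 14.5% were called, and 0 members but 8.69% of all genes were DEG. With edgeR 46 members had an unadjusted p under 0.05, and 75 of 91 had a log2 fold change below 0, against 7641 and 10301 of the 21390 genes tested. Their median was -0.17, against 0.02 for all genes. Kainate and saline libraries did not overlap in CPM for 43 members (47.3%), against 30.7% of all genes. The log2 fold changes were small, and 81 members stayed inside a 1.5-fold change with 2 standard errors on each side.

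By role, 5 of the members called lower were in complex I, 1 in complex III, 1 in complex IV and 1 in complex V. The median log2 fold change, which was not tested by role, was -0.19 for the core, -0.16 for the accessory subunits and -0.19 for the assembly factors of complex I. It was -0.10 for complex III, -0.22 for the ubiquitous subunits of complex IV, -0.23 for the F1 head and -0.20 for the rest of complex V. The complex IV isoforms and factors were at 0.03. All 11 ubiquitous complex IV subunits lay below 0, and their highest value was -0.02.

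Cox6c, a small subunit of complex IV (ENSMUSG00000014313.16, chr15:35923634-35938392), fell most clearly among the abundant members. It stood at 167, 181, 160 and 175 CPM after saline in the PIZ and at 126, 130, 132 and 119 after kainate, without overlap. The log2 fold change was -0.43 (SE 0.099, adjusted p 0.00152), and the call was kept under all 18 alternatives. The EZ value at day 3 was -0.35 (adjusted p 0.00405), which was lost without mouse 18, 38, 41, 42 or 44 or with library size as the only scaling. The EZ value at day 7 was -0.15, where mouse 23 stood at 203 CPM and the other kainate mice between 121 and 138.

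Uqcrc2, a core subunit of complex III, stood at 220, 185, 189 and 199 CPM after saline and at 155, 159, 155 and 147 after kainate, a log2 fold change of -0.37 with an SE of 0.093 and an adjusted p of 0.00374. Ndufa5 stood at 52.5, 60.5, 49.5 and 59.9 and at 40.7, 40.7, 45.8 and 40.4, a log2 fold change of -0.41 (adjusted p 0.00242). Neither gene overlapped between the groups. The other calls were Ndufa9 (-0.35), Ndufs1 (-0.32), Ndufaf5 (-0.36) and the complex I methyltransferase Ndufaf7 (-0.29) of complex I and Atp5pd (-0.29), the d subunit of the stalk of complex V. Calls of Ndufs1 and Ndufaf5 were lost under 10 of 18 alternatives each, without mouse 18, 29, 30, 41, 42 or 44 among them. Ndufa5 lost its call without mouse 29, 41 or 44, and Uqcrc2 without mouse 18, 41, 42 or 44. Ndufa9 and Ndufaf7 lost theirs without mouse 18, 41 or 44 and Atp5pd without mouse 30, 41 or 44. These last 3 and Uqcrc2 were also lost with library size as the only scaling, and Ndufa9 with only the compared groups in the model (adjusted p 0.0129).

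The count of called members in the PIZ at day 3 ran from 2 without mouse 41 or 44 and 4 without mouse 18 to 40 (0 higher, 40 lower) with the GC and length offsets, and with library size as the only scaling it was 3 (1 higher, 2 lower). DESeq2 called 19 and limma-voom with quality weights 30. The median of the members stayed below that of all genes under each of these scalings, at -0.27 against -0.07 with the offsets and at -0.08 against 0.11 with library size alone. In these libraries all 8 microglia markers and 4 of 8 astrocyte markers rose, with microglia sums of 326 to 449 CPM after saline and 1086 to 1337 after kainate, and the part of this in the lower levels was not tested. No neuron marker fell among 8, and Nefm rose, while the summed neuron level was 5633 to 7429 CPM after saline and 5022 to 5462 after kainate. Of the other lists, 1 granule cell marker, Calb1, and 1 pyramidal marker, Fibcd1, fell, and the interneuron gene Npy and the smooth muscle marker Notch3 rose.

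**Figure D4:**
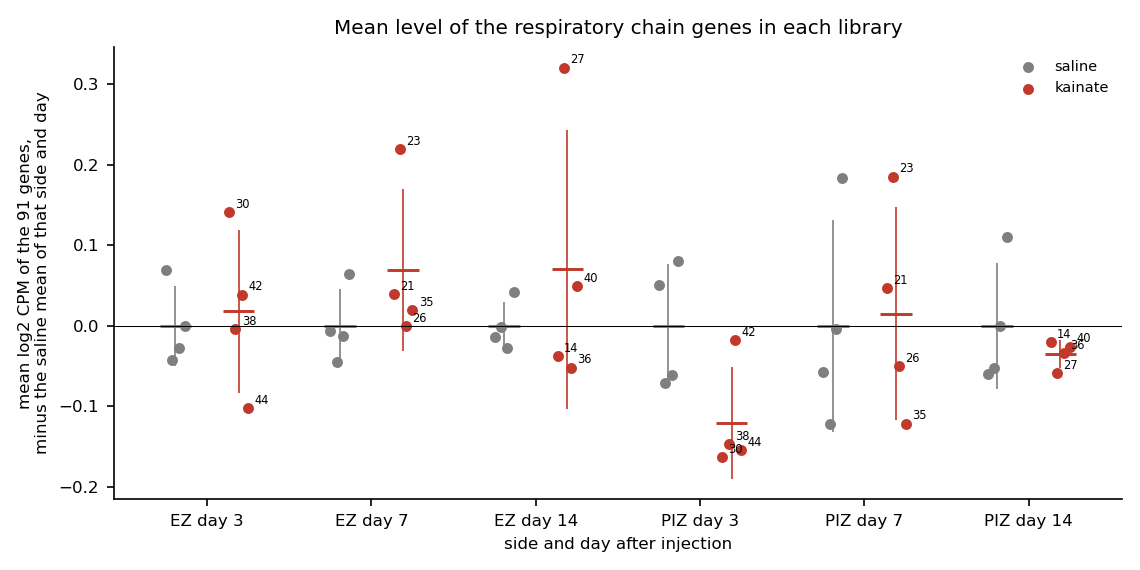
Mean log2 CPM of the 91 members in each library minus the mean of the 4 saline libraries of the same side and day, with bars for the group mean ± SD and the mouse number beside each kainate library. The 4 kainate libraries of the PIZ at day 3 lie below 0, with mouse 42 inside the saline range, those of the EZ lie on both sides of 0 at days 3 and 14 and above it at day 7, and mouse 27 stands highest at day 14.

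The average over members shows the same by mouse. In the PIZ at day 3 the mean log2 CPM of the 91 members, relative to the saline mean, was -0.16 in mouse 30, -0.15 in mouse 38, -0.02 in mouse 42 and -0.15 in mouse 44. On the EZ side of the same mice it was 0.14, -0.004 in mouse 38, 0.04 and -0.10. In the EZ at day 7 it was 0.04 in mouse 21, 0.22 in mouse 23, 0.00027 in mouse 26 and 0.02 in mouse 35. The scatter of single members between mice in the EZ was wider after kainate, a difference that was not tested. The median coefficient of variation was 4.62% to 5.88% in the 3 saline groups and 10.41% to 12.6% in the 3 kainate groups. In the PIZ the kainate groups (4.59% to 11.4%) spanned the saline groups (6.66% to 11.2%).

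EdgeR called no member at day 14 on either side or at day 7 in the PIZ. At day 14 in the EZ, edgeR called 0 members (3 at an unadjusted p under 0.05), DESeq2 0 and limma-voom with quality weights 0, against 2.35% of all genes called higher and 0.0655% lower. The members' median was 0.07 with 76 of 91 above 0, but it was -0.02 without mouse 27, whose mean stood 0.32 above saline while the other kainate mice stood between -0.05 and 0.05. In that library the microglia sum was 3443 CPM against 536 to 791 in the other kainate mice, and the neuron sum 3662 against 4721 to 6064, and their part in the higher mean was not tested. In the PIZ at day 7, edgeR called 0 members (4 at an unadjusted p under 0.05), DESeq2 0 and limma-voom with quality weights 1, where 0.168% of all genes were higher and 0.0701% lower. At day 14 in the PIZ edgeR called 0 (1 at an unadjusted p under 0.05), and so did both other tools, where 0.00935% were higher and 0.00468% lower.

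Of the members called at day 3 and day 7 in the EZ, which use different mice, 6 were shared, which is 75% of the 8 and 40% of the 15, and all 6 had the same sign. They were Atp5mc2, Cox6b2, Ndufa2, Ndufa4l2, Ndufa5 and Ndufc2. Of all genes tested, 25.9% were called higher and 19.7% lower in the EZ at day 7, and those called at both days were not counted. The EZ and PIZ at day 3, which are sides of the same mice, shared Atp5mc2, Cox6c and Ndufa5 (37.5% of 8 and 33.3% of 9). Over the 3 comparisons with calls, 21 members were called at least once, and Atp5mc2 and Ndufa5 in all 3. The matching overlaps over all genes were not counted, so these counts cannot be read as particular to the members.

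The difference of the kainate effect between the sides was tested as a contrast of its own. At day 7, 1 member was called, Atp5mc2, whose effect was 0.44 (SE 0.10, adjusted p 0.00338) larger in the EZ than in the PIZ, against 11.3% of all genes called. The PIZ values at day 7 were 46.1, 45.6, 45.4 and 49.9 CPM after saline and 39.9, 55.1, 45.7 and 46.7 after kainate, which overlap. The call was lost without mouse 20, 21, 34, 35 or 89, with an adjusted p of 0.0136, 0.0421, 0.0117, 0.0134 and 0.0121. It was also lost with no filter on low counts (adjusted p 0.02005) and with only the compared groups in the model (adjusted p 0.0252). Cox6b2 missed the threshold with a difference of 2.01 (SE 0.57, adjusted p 0.01001), as did Cox4i2 with 1.13 (adjusted p 0.0454). With the mouse as a block in limma-voom, which pairs the 2 sides of an animal, 2 members were called. That fit differs from the reported one in the tool as well as in the block. Without mouse 23 or 26 edgeR called 4. At day 3, where 81 of 91 differences were above 0 with a median of 0.15, edgeR called 0 members (6 at an unadjusted p under 0.05), DESeq2 0 and limma-voom with quality weights 3, against 0.0655% of all genes. At day 14 all 3 tools called 0 (edgeR 1 at an unadjusted p under 0.05), against 0% of all genes.

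Between days, edgeR called 0 members for day 7 minus day 3 in the EZ (3 at an unadjusted p under 0.05) and in the PIZ (12), as did both other tools, against 0.145% and 0.0234% of all genes. For day 14 minus day 7 in the EZ, edgeR called 0 (16 at an unadjusted p under 0.05), DESeq2 2 and limma-voom with quality weights 15, against 0.295% of all genes, and edgeR called 8 without mouse 23, 6 without mouse 27 and 1 without mouse 26. The saline EZ and PIZ did not differ by call at day 3, 7 or 14 with any of the 3 tools, where edgeR gave 4, 0 and 3 members at an unadjusted p under 0.05 and 0.0281%, 0% and 0% of all genes were called.

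The 13 subunits encoded in mitochondrial DNA are the partners of the members in the same complexes, and the difference between them and the members was not tested. At day 3 in the EZ, 11 of 13 fell, against 14.7% of all genes, with a median log2 fold change of -0.58 and all 13 below 0. Their share of all counts was 6.55% ± 0.175 (SD, n = 4) after saline and 4.91% ± 0.390 after kainate, while that of the 91 members was 0.775% ± 0.0265 and 0.830% ± 0.0656. The examples with the smallest p were mt-Nd4l at -0.66 (SE 0.14, adjusted p 0.000145) and mt-Nd1 at -0.64, both complex I subunits. At day 7, 5 fell, all in complex I, against 19.7% of all genes, with a median of -0.36 and mt-Nd2 at -0.69 (adjusted p 0.000393). The share was 7.75% in mouse 23 and 4.50% to 5.501% in the other kainate mice, and without mouse 23 the count was 11, without mouse 21 or 35 it was 2, and with only the compared groups in the model it was 0. The day 3 count was 7 with the GC and length offsets or without mouse 38 and 9 with library size alone. On the PIZ side at day 3 edgeR called 0 of 13 (8 at an unadjusted p under 0.05, DESeq2 2, limma-voom with quality weights 8), with a median of -0.30.

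**Figure D5:**
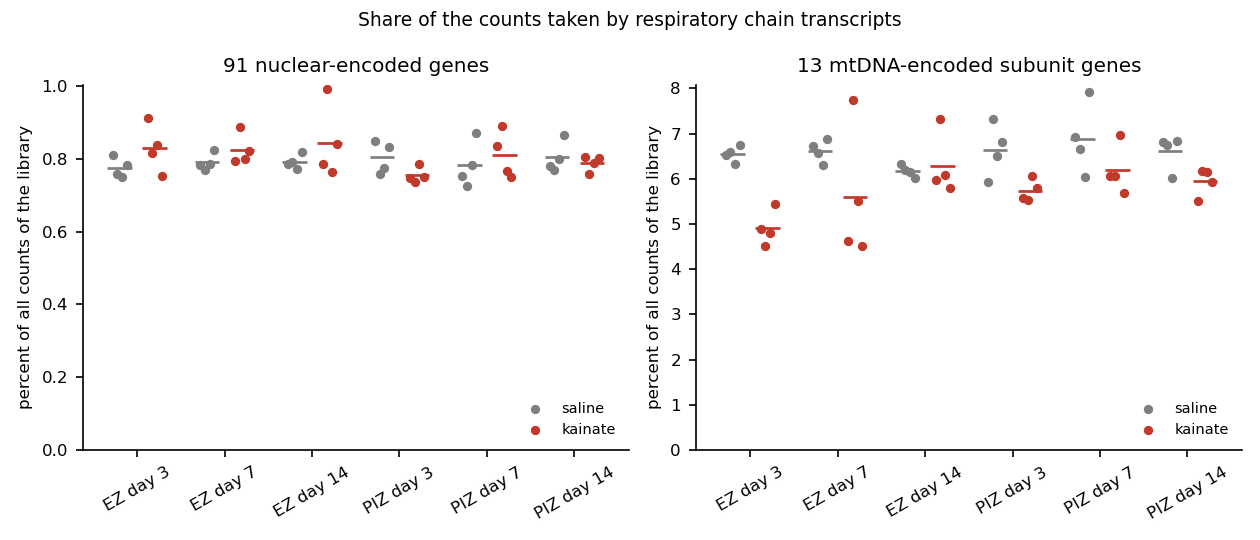
Percent of all counts held by the 91 nuclear members and by the 13 subunits of mitochondrial DNA in each library, with the group mean as a line. In the EZ at day 3 the mitochondrial share is lower in all 4 kainate libraries, and at day 7 mouse 23 stands apart at 7.75%.

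Pathway neighbours outside the symbol rule were counted from lists chosen with earlier results of these data known. Their counts are to be read against the shares of all genes called. In the EZ these were 20.5% higher and 14.7% lower at day 3 and 25.9% and 19.7% at day 7. In the PIZ at day 3 they were 8.12% and 4.18%. Of 6 genes of complex II and the cytochrome c carriers, Sdhc, a membrane anchor of complex II, rose in the EZ at day 3 (0.38, adjusted p 0.000833) and day 7 (0.47, adjusted p 4.82e-05), and 0 fell. Of 42 assembly factors, 2 rose and 4 fell at day 3 and 1 rose and 9 fell at day 7, so the share called lower was below that of all genes at day 3 and near it at day 7. Among these, Sdhaf3, which helps build complex II, was at -0.71 and -0.80, Atpaf1, a chaperone of the F1 head, at -0.74 and -0.72, and Coa4 of complex IV at 0.96 and 1.09. On the PIZ side 2 fell at day 3, Tmem70 of complex V (-0.40) and Uqcc1 of complex III (-0.33).

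Of 15 regulators of mitochondrial biogenesis and hypoxia, Hif1a rose in the EZ at day 3 (0.68) and day 7 (0.98, adjusted p 6.86e-06). Ppargc1a, a coactivator of biogenesis, fell at day 3 (-0.55, adjusted p 0.00198) with Yy1 (-0.24), and at day 7 the orphan receptor gene Esrrg fell (-1.67) and Gabpa rose (0.33). On the PIZ side at day 3, 0 of them were called by edgeR (6 at an unadjusted p under 0.05). Of 16 genes of the TCA cycle and pyruvate dehydrogenase, Idh3b, Sucla2, Idh3g, Dlat and Pdha1 fell at day 3, and at day 7 5 fell and Suclg2 rose (1.17). Idh3b, a subunit of isocitrate dehydrogenase, fell at -0.35 and -0.31 in the EZ and at -0.30 in the PIZ at day 3, where Fh1, Sucla2 and Dlat fell as well.

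Of 23 genes of glycolysis and lactate transport, 6 rose and 6 fell in the EZ at day 3, and 5 rose and 6 fell at day 7, the latter counts near the shares of all genes. Hk2, a hexokinase, rose by 1.59 and 2.65 on the log2 scale and was the member of these lists still called at day 14 (1.56, adjusted p 0.00202), and Slc16a3, a lactate transporter, rose by 2.70 and 2.97. Both rose in the PIZ at day 3 as well, at 1.602 and 2.07. Of 13 mitochondrial carriers and membrane proteins, the import receptor Tomm20 fell in the EZ (-0.98 and -0.93) and Phb2 rose (0.30 and 0.30), and in the PIZ at day 3 the chaperone Hspa9 (-0.38) and the channel Vdac2 (-0.22) fell. Apart from Hk2, none of these lists had a call in the EZ at day 14.

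Members also differed by the properties of their transcripts. Across the 91 members, which share their libraries, the Spearman correlation of the log2 fold change with GC content was 0.41 in the EZ at day 3, 0.39 at day 7 and 0.44 in the PIZ at day 3, and with transcript length -0.30, -0.44 and -0.25. In the comparisons where edgeR called no member, the correlation with GC content was -0.02 in the EZ at day 14, 0.49 in the PIZ at day 7 and 0.45 in the PIZ at day 14, and that with length -0.29, -0.32 and -0.14. Over all genes tested the correlation with GC content ran from -0.01 in the EZ at day 14 to 0.25 in the PIZ at day 7, and that with length from -0.11 in the EZ at day 3 to -0.04 in the PIZ at day 7. Of the members that fell, Ndufb2, Ndufaf4 and Ndufs1 are long (4389, 3634 and 3613 bases) and Ndufa5 and Cox6c short (879 and 503 bases).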

How the data were processed

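RNA was measured by poly(A)-selected, stranded sequencing of 48 libraries in 12 groups of 4 mice. Per the methods of the study and the submitters' processing notes, the authors trimmed reads with fastp 0.20.1, aligned them to GRCm39 with HISAT2 2.2.1 and assigned them to Gencode M28 genes with featureCounts of Subread 1.6.4, placing a multi-mapping read at its primary alignment. The deposited values are raw counts per gene, with totals of 17762656 to 25712975 (median 22108562) in a library, which limit the precision of the low paralogs. Gene type, position, length and GC content came from the Gencode M39 annotation, in which 98.90% of identifiers were found.

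In R 4.3.3, edgeR 4.0.16 was used with filterByExpr, TMM scaling and a quasi-likelihood fit of 12 group means to all 48 libraries. Adjustment was over all genes of a comparison, a standard error is the log2 fold change divided by the square root of F, and the code was tested on simulated data. Log2 CPM of single libraries used a prior count of 2. Alternatives were DESeq2 1.42.0, limma 3.58.1 (voom), other scalings, thresholds and filters, offsets for GC content and length, a block for the mouse, and the omission of each mouse in turn. limma-voom with no block was added after the data were seen. The 2 libraries of a mouse come from the same animal, and their residuals correlated between -0.05 and 0.38 (over 0.1 in 20 of 24 mice). The members and gene lists were chosen with earlier results of these data known. Named are, for each comparison, the 4 members called higher and 6 called lower with the smallest p, all DEG, members called in a difference between sides or days, the most abundant member of each role, paralog sets, the inhibitor and leading genes of the pathway lists. 1 gene under this rule is not reported here. The authors' own comparisons were not used.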

Additional observations from a re-analysis of the deposited data

Results flagged for a closer look

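In 180 sets of 4 values, 1 for each measure and group, 13 values from 9 libraries stood apart from the other 3 of their set by Dixon's criterion, where chance gives about 1 in 20. Mouse 23 of the EZ after kainate at day 7 stood apart in the mean log2 CPM of 4 roles, at 5.92 for the complex I accessory subunits (others 5.65 to 5.69), 6.74 for complex III (6.46 to 6.49), 8.05 for the F1 head (7.87 to 7.89) and 6.55 for the rest of complex V (6.24 to 6.29). In the PIZ after kainate at day 3, mouse 42 was at 5.65 for the mean of all members (others 5.51 to 5.52) and at 1.51 for Cox6b2 (others 0.82 to 0.86).

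Mouse 27 after kainate at day 14 was at 0.58 for log2 CPM of Cox4i2 in the EZ (others 0.01 to 0.07) and at 7.72 for the F1 head in the PIZ (7.81 throughout the others). Among saline libraries, mouse 24 in the PIZ at day 14 was at 1.02 for the complex IV isoforms and factors (others 1.25 to 1.297), and mouse 39 there at 6.47 for the rest of complex V (6.28 to 6.31). Mouse 89 at day 7 was at 5.64 for Atp5mc2 in the PIZ (others 5.51 to 5.53) and at 0.11 for Ndufa4l2 in the EZ (others from 0.94 up to 1). Mouse 33 was at 0.43 for Cox4i2 in the EZ after saline at day 7 (others -0.33 to -0.21). The effect of kainate on Atp5mc2 at day 7 differed between the sides by 0.44 on the log2 scale (EZ minus PIZ, edgeR adjusted p 0.00338, SE 0.10). That call was kept under 11 alternatives and lost under 7.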

How the results depend on the processing

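Of 312 alternative counts of called members 263 stayed within 1.5 times the reported count, and of 540 alternative values of named genes 440 kept their call and none changed direction. The 312 include the comparisons with no member called, where a count that stayed at 0 is among the 263. The 263 therefore do not measure how steady the counts were in the comparisons with calls. In the order EZ day 3, EZ day 7 and PIZ day 3, counts were 17, 27 and 29 at an adjusted p under 0.05, 3, 4 and 0 with a fold change over 1.5, and 24, 30 and 40 with GC content and length offsets. limma-voom with quality weights gave 27 (EZ) and 30 (PIZ) at day 3, library size alone 13 and 3, DESeq2 19 in the PIZ at day 3, and the model of only the compared groups 8 in the EZ at day 7. Leaving out 1 mouse gave 3 to 7, 10 to 23 and 2 to 8. limma-voom with quality weights also gave 1 for the PIZ at day 7 and 3 for the difference between sides at day 3.

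For the difference between sides at day 7, where 1 member was called, the count was 6 at an adjusted p under 0.05 and with quality weights, 3 with DESeq2, library size alone or GC and length offsets, 2 with upper quartile factors, 0 with a fold change over 1.5, no filter on low counts or only the compared groups, and 0 to 4 leaving out 1 mouse. The replicate block by mouse, fitted in limma-voom, gave 2 there, and 8, 15 and 9 in the 3 comparisons named first. It changed no other count by over 1.5 times. For day 14 minus day 7 in the EZ, where none was called, the count was 5 at an adjusted p under 0.05, 2 with DESeq2, 15 with quality weights and 0 to 8 leaving out 1 mouse.

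The median of the members moved to -0.19, -0.19 and -0.27 with GC and length offsets and to 0.11 in the EZ at day 3 with library size alone, while that of all genes moved to -0.05, -0.10 and -0.07 and to 0.16. The median of the difference between sides at day 14 turned from 0.12 to -0.000363 with quality weights. The cause of these changes was not tested. With 4 mice in a group, the lowest paralogs rest on few counts in a library, such as 11 to 66 for Cox4i2.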

Other observations

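Over the means of the 12 groups, the genes outside the list whose log2 CPM followed the mean of the 91 members most closely were Rasl11b (Pearson's r 0.94), Zfand2a (0.93) and Cebpz (0.91). The 12 means come from 24 mice whose sides were both sequenced, and the values are a description.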
